A study of Mus musculus with 4 samples.

Results

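Slc2a2, Gckr, Khk, Pfkfb1, Pklr, Sord, Mlxipl and Mlx carry sugar into liver metabolism or switch genes on in response to it. They were taken by gene symbol from a table of FPKM, that is, sequenced fragments per kilobase of transcript scaled to the depth of the library, and are 8 of the 23920 genes in it. All 8 exceeded the minimum of 1 FPKM (mean of all libraries) set for testing, as did 9820 genes in all. The RNA came from livers of male C57BL/6 mice aged 12 weeks, refed for 12 h after a 24 h fast. There were 2 libraries of the genotype SREBP1c WT (WT) and 2 of SREBP1c KO (KO), so nutrition, age, sex and strain were common to both groups. Neither how the allele was made nor how many mice gave each library is given in the sources used here, and the labels do not say that libraries came from separate mice, so every p-value measures only the spread between these libraries.

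SREBP1c, a product of Srebf1, carries the insulin signal to lipogenic genes, while ChREBP, the product of Mlxipl, carries the signal of glucose and fructose. ChREBP binds DNA as a pair with MLX at the carbohydrate response element (ChoRE), a tandem of E-box-like half-sites first worked out at the liver pyruvate kinase promoter. In a refed liver both factors act on genes that turn dietary sugar into fatty acids, and the comparison asks how the sugar side stood when SREBP1c was missing.

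Srebf1 had 63.7 and 58.2 FPKM in WT against 8.63 and 6.97 FPKM in KO (log2 difference −2.82, limma adjusted p = 0.00172). Its single row does not separate SREBP1c from SREBP1a. The hepatocyte markers summed to between 23930 and 26710 FPKM, with Alb listed at 0 in every library, and 2 of 4 kidney and 4 of 5 exocrine pancreas markers were listed at 0 throughout. Cela1, the remaining pancreas marker, had 16.6 and 13.7 FPKM in WT against 25.4 and 14.8 FPKM in KO. Umod and Kap, the remaining kidney markers, did not exceed 0.3105 FPKM. KO replicate 2 stood apart: its 10 acute phase genes summed to 11610 FPKM against 3438 to 5316 FPKM in the other libraries, and its 8 fasting response genes to 1892 FPKM against 1029 to 1217 FPKM. Its Kupffer cell markers, 7 genes, summed to 117 FPKM against 65.2 to 86.5 FPKM. The cholangiocyte markers (5 genes) summed to 25.4 and 23.5 FPKM in WT against 50.2 and 41.7 FPKM in KO, mostly Spp1 with 21.3 and 20.2 against 45.5 and 37.0 FPKM, and 2 of the 3 tested were higher without overlap. The endothelial markers (6 genes) summed to 47.7 and 49.98 against 53.2 and 63.9 FPKM, with 3 of 6 higher without overlap, and the stellate cell markers (6 genes) to 51.9 and 58.5 against 59.96 and 61.1 FPKM, with 2 of 6. Over all genes tested, 22.4% were higher in KO without overlap. Of 4 adipocyte markers Cidec had 3.09 and 2.23 FPKM in WT against 8.42 and 6.75 FPKM in KO, while Lep was listed at 0 and Adipoq and Plin1 did not exceed 0.170 FPKM. The part of these markers in the results on the 8 genes was not tested. In whole liver, fewer cells of a type and less RNA per cell cannot be told apart.

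The transporter, the pyruvate kinase, the ketohexokinase and the bifunctional regulator of phosphofructokinase had lower levels in KO, at 0.444 to 0.651 of the WT mean, while Gckr, Mlxipl and Mlx lay at 0.863 to 0.937 of it and Sord at 1.04. None of the 8 passed the limma threshold after Benjamini-Hochberg adjustment over all genes, a threshold passed by 0.0713% of genes. In 5 of the 8 both KO libraries lay below both WT libraries, against 16.4% of all genes, and in none did both lie above, against 22.4%. At an unadjusted p under 0.05, 4 of the 8 were lower, against 3.25% of all genes. The median log2 difference of the 8 was −0.41, beside 0.017 over all genes tested. The 5 were the same genes without WT replicate 1 and without KO replicate 2, where 23.6% and 32.8% of all genes were lower without overlap. Without KO replicate 2, Sord was higher without overlap, against 39.1% of all genes. The count lower was 7 without WT replicate 2, against 34.4% of all genes. Without KO replicate 1 all 8 were lower, against 33.9%. KO replicate 2 was the lowest library for each of the 8 (it was the lowest for 26.8% of all genes). The part that its acute phase and fasting genes had in this was not tested.

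**Figure D1:**
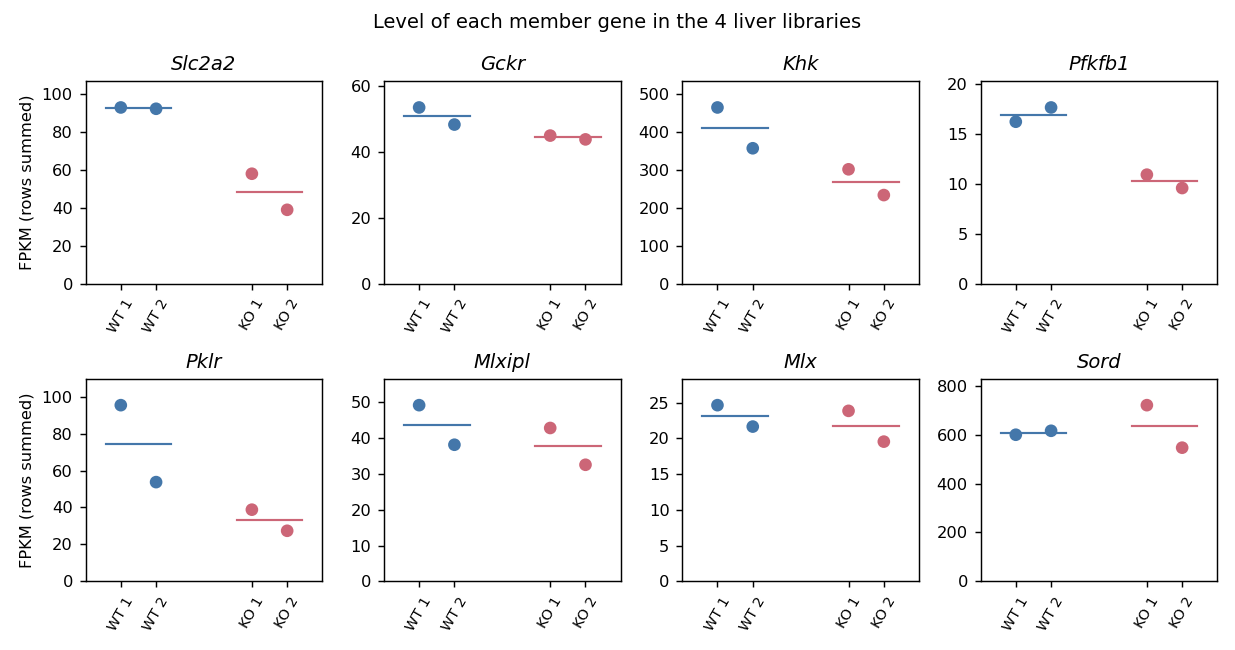
Points give the FPKM of each gene in each library, with the rows of a gene summed, on axes that start at 0; WT libraries are blue, KO libraries red, and lines are group means (n = 2). Slc2a2, Gckr, Khk, Pfkfb1 and Pklr do not overlap between the groups, Mlxipl, Mlx and Sord do, and KO replicate 2 is the lowest point in every panel.

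Slc2a2 (NM_031197, chr3:28697903-28728361, mm10, gene coordinates from RefSeq here and for the others) encodes GLUT2, the low-affinity transporter through which glucose and fructose enter and glucose leaves hepatocytes. It had 92.8 and 92.1 FPKM in WT against 57.9 and 38.9 FPKM in KO, or 92.5 ± 0.485 against 48.4 ± 13.4 FPKM (SD, n = 2 each). The WT libraries lay within 1 FPKM of each other, and the KO libraries were further apart than that but both lower. The log2 difference was −0.95 (SE 0.19, 95% interval −1.42 to −0.48), with an unadjusted limma p of 0.00266 and an adjusted p = 0.298. Only 0.397% of genes tested had a difference as low. Dropping KO replicate 1 moved the Slc2a2 difference to −1.23, and dropping KO replicate 2 moved it to −0.67. The SE of 0.11 in each of those fits is far above the deviation of either WT library from their mean (0.0053 on the log2 scale), since limma draws the spread of a gene towards that of all genes.

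The other glucose transporters were minor in these livers. Slc2a9, which carries urate, had the highest level of the listed ones, with 13.6 and 15.1 FPKM in WT against 14.5 and 11.7 FPKM in KO. Slc2a8, an intracellular sugar transporter, had 4.73 and 6.26 FPKM in WT against 6.53 and 6.64 FPKM in KO, and Slc2a1, the transporter of most proliferating cells, 4.20 and 4.65 against 4.84 and 5.21 FPKM. Both thus lay slightly higher in KO, without passing. Slc2a5, the intestinal fructose transporter, had 1.66 and 1.88 FPKM in WT against 1.33 and 0.711 FPKM in KO. Of the 13 transporters and hexokinases on this list 4 reached 1 FPKM and none passed.

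Gckr (NM_144909, chr5:31297266-31327302) encodes GKRP, a nuclear regulator of hepatic glucose phosphorylation that responds to fructose phosphates. It had 53.6 and 48.4 FPKM in WT against 45.1 and 43.9 FPKM in KO. Although the groups did not overlap, the step between them was small, with a log2 difference of −0.19 (95% interval −0.46 to 0.073, limma adjusted p = 0.723). It was −0.12 with WT replicate 1 left out. The ratio of Slc2a2 to Gckr was 1.73 and 1.90 in WT and 1.29 and 0.886 in KO. Both KO ratios were below both WT ratios, but since Gckr differed little this mostly restates the lower Slc2a2. The ratio of Pklr to Slc2a2 overlapped between the groups, at 1.03 and 0.583 in WT and 0.670 and 0.704 in KO.

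Khk (NM_008439, chr5:30921436-30931248) encodes ketohexokinase, which phosphorylates fructose and commits it to breakdown. It had 465 and 358 FPKM in WT against 302 and 234 FPKM in KO, or 412 ± 76.2 against 268 ± 48.1 FPKM (SD, n = 2 each). Both KO libraries were below both WT libraries, with a spread in each group (log2 difference −0.62, SE 0.19, 95% interval −1.09 to −0.14, limma adjusted p = 0.538). With 1 library left out the difference ran from −0.81 to −0.43. The table holds 1 row, so the C and A forms of the enzyme were not separated. Khk lies 366 kb from Gckr, and the 14 tested genes between them had differences from −0.084 to 0.22, none of which passed. Of these, 1 was lower and 5 were higher without overlap, against 16.4% and 22.4% of all genes.

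Sord (NM_146126, chr2:122234839-122265337) encodes sorbitol dehydrogenase, which makes fructose from sorbitol in the polyol pathway. It had the highest level of the 8 genes, with 599.6 and 616 FPKM in WT against 721 and 547 FPKM in KO. The KO libraries lay on either side of the WT pair, so the difference of 0.047 (95% interval −0.38 to 0.47, limma adjusted p = 0.965) changed sign to −0.15 without KO replicate 1. Khk and Sord, both of which lead to fructose metabolism, had a within-library ratio of 0.776 and 0.581 in WT and of 0.419 and 0.428 in KO.

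Downstream of ketohexokinase, Tkfc (listed as Dak), the triose kinase that acts on its products, had 382 and 239 FPKM in WT against 204 and 139 FPKM in KO (log2 difference −0.84, unadjusted p = 0.0235, limma adjusted p = 0.57). Both KO libraries thus lay below both WT libraries, as for Khk. Akr1b8, an aldose reductase relative, had 1.23 and 1.07 FPKM in WT against 1.60 and 1.72 FPKM in KO. Aldh1b1, a mitochondrial aldehyde dehydrogenase, had 28.3 and 30.8 FPKM in WT against 24.8 and 21.4 FPKM in KO. Over the 7 genes of the fructose and polyol list, 3 were lower and 1 higher without overlap, against 16.4% and 22.4% of all genes. The median difference of the list was −0.004 and none passed.

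Pfkfb1 (NM_008824, chrX:150587445-150643878) encodes the liver form of the bifunctional enzyme that makes and removes the allosteric activator of phosphofructokinase. It had 16.2 and 17.6 FPKM in WT against 10.9 and 9.57 FPKM in KO, or 16.9 ± 1.009 against 10.2 ± 0.947 FPKM (SD, n = 2 each). The gap between the groups exceeded the spread within either, and the unadjusted limma p of 0.00109 was the smallest of the 8 genes (log2 difference −0.67, SE 0.11, 95% interval −0.96 to −0.39, adjusted p = 0.21). With 1 library left out the difference ran from −0.76 to −0.59. Its relative Pfkfb3, the inducible form with strong kinase activity, lay on the other side, with 1.86 and 0.780 FPKM in WT against 4.08 and 3.64 FPKM in KO (log2 difference 1.11, unadjusted p = 0.00279, adjusted p = 0.298), summed over 8 rows. Pfkfb2, the heart form, had 2.28 and 2.02 FPKM in WT against 2.30 and 3.10 FPKM in KO, and Pfkfb4 stayed at or below 0.310 FPKM.

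Pklr (chr3:89136122-89146815) encodes the liver and red cell pyruvate kinases, which end glycolysis and differ by their first exons. The sum of its rows was 95.4 and 53.7 FPKM in WT against 38.8 and 27.4 FPKM in KO, or 74.6 ± 29.5 against 33.1 ± 8.08 FPKM (SD, n = 2 each). WT replicate 1 stood far above WT replicate 2, and both KO libraries lay below both. Its log2 difference of −1.11 was the most negative of the 8 genes, with the widest error (SE 0.29, 95% interval −1.83 to −0.39, limma adjusted p = 0.436). It was −0.70 with WT replicate 1 left out and −1.52 with WT replicate 2 left out. Without KO replicate 1 it was −1.36 and without KO replicate 2 it was −0.87. Against ChREBP mRNA, the ratio of Pklr to Mlxipl was 1.94 and 1.41 in WT and 0.907 and 0.842 in KO, so Pklr was lower in KO relative to its factor's transcript too.

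Pklr was the member with 2 rows from 2 start sites. Row NM_001099779, which begins at the liver start, held 97.4% to 99.8% of the sum. Row NM_013631, whose first base lies 430 bases upstream and which has the exon of the red cell form, had 0.148 and 0.320 FPKM in WT against 0.294 and 0.705 FPKM in KO. These values correspond to roughly 9, 19, 19 and 41 fragments, estimated from length and depth, so its share of 0.155% to 2.58% is thinly measured. The red cell globins did not share 1 order of the libraries. Hba-a1 had 462 and 139 FPKM in WT against 121 and 276 FPKM in KO. Hbb-bs had 10.4 and 5.64 FPKM in WT against 5.28 and 22.9 FPKM in KO. The part of red cells in row NM_013631 was not tested. Pkm, the pyruvate kinase gene of most other tissues, had 8.38 and 6.73 FPKM in WT against 8.57 and 10.4 FPKM in KO.

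Promoter windows (250 bases before to 50 after a start, RefSeq, GRCm38.p6, the assembly of mm10) were found for all 8 genes, 13 windows in all, and are shown where they hold a motif of the ChREBP and MLX or SREBP type. Capitals mark the match, positions count from the window's start site, both strands were searched, and no motif overlapped another. At the liver start of Pklr the ChoRE consensus matched from −170, a match that 0.119% of 32851 windows hold. Its half-sites are not perfect E-boxes, and a tandem of 2 perfect E-boxes 5 bases apart occurs in none of the windows. The printed run ends before the first base of the GENCODE model of the liver row. A perfect E-box, CACGTG, was in 7.15% of windows, among them those of Khk, Mlx and the upstream start of Mlxipl. The Khk match lies in the first exon of the GENCODE model of its row. The core of the sterol regulatory element, TCACNCCAC, was in 1.24% of windows, among them the downstream start of Mlxipl. The window of Slc2a2, the 4 of Pfkfb1 and those of Gckr and Sord held none of these letters, and the matches do not show that a factor bound.
Pklr ChoRE, chr3:89136373-89136571, plus strand: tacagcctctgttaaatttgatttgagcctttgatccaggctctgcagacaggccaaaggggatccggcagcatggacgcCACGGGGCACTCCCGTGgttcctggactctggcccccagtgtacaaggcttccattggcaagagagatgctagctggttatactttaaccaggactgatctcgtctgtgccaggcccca
Khk E-box, chr5:30921476-30921505, plus strand: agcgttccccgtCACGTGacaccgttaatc
Mlx E-box, chr11:101087238-101087267, plus strand: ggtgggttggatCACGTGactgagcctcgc
Mlxipl E-box, chr5:135089780-135089809, plus strand: gcggctgccatcCACGTGctaaggagagaa
Mlxipl SRE core, chr5:135106745-135106774, plus strand: atcagtggttTCACACCACgctcactggtt

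Mlxipl (NM_021455, chr5:135089890-135139768) had 49.2 and 38.1 FPKM in WT against 42.8 and 32.5 FPKM in KO. The groups interleaved, with KO replicate 1 between the WT libraries (log2 difference −0.21, 95% interval −0.65 to 0.24, limma adjusted p = 0.822). Without KO replicate 2 the difference was −0.017 and without KO replicate 1 it was −0.40. The deposited row begins 17.0 kb downstream of the annotated upstream start, the one whose window holds the E-box shown above, so the short ChREBP form that is known to start there was not measured by a row of its own. These values are of mRNA, while sugars are known to act on the ChREBP protein.

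Mlx (chr11:101086707-101092207) encodes the partner that ChREBP needs to bind DNA. The sum of its 3 rows was 24.6 and 21.6 FPKM in WT against 23.8 and 19.5 FPKM in KO, overlapping between the groups (log2 difference −0.093, 95% interval −0.43 to 0.24, limma adjusted p = 0.898). It was 0.044 without KO replicate 2. The ratio of Mlxipl to Mlx was 2.0 and 1.76 in WT and 1.8 and 1.67 in KO, overlapping between the groups. Mlx shares its chromosome with Srebf1, 40.9 Mb away, and of the 13 other tested genes within 200 kb of it none passed. Their differences ran from −0.13 to 0.53 (Ramp2), with a median of 0.14. Without overlap 1 of them was lower and 6 were higher, against 16.4% and 22.4% of all genes.

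The rows of Mlx differed among themselves. Row NM_001159385, whose model encodes 244 residues, was the major one, with 20.8 and 17.4 FPKM in WT against 18.1 and 13.7 FPKM in KO. Row NM_011550, which has a longer first exon (chr11:101087300-101087529) and encodes 298 residues, had 2.09 and 2.40 FPKM in WT against 4.41 and 4.30 FPKM in KO, about 94 and 98 against 198 and 176 fragments. Its KO values were close to each other and 1.94 times the WT mean, and its share of the gene was 8.48% and 11.1% in WT and 18.5% and 22% in KO. In a limma fit of all 11494 rows it did not pass (log2 difference 0.72, unadjusted p = 0.0023, adjusted p = 0.428), in a fit where 0.0435% of rows passed. Row NM_001159384, without an internal exon and with 214 residues, had 1.77 and 1.85 FPKM in WT against 1.34 and 1.55 FPKM in KO. The rows share most exons, so how the upstream program divided fragments between them decides these values.

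**Figure D2:**
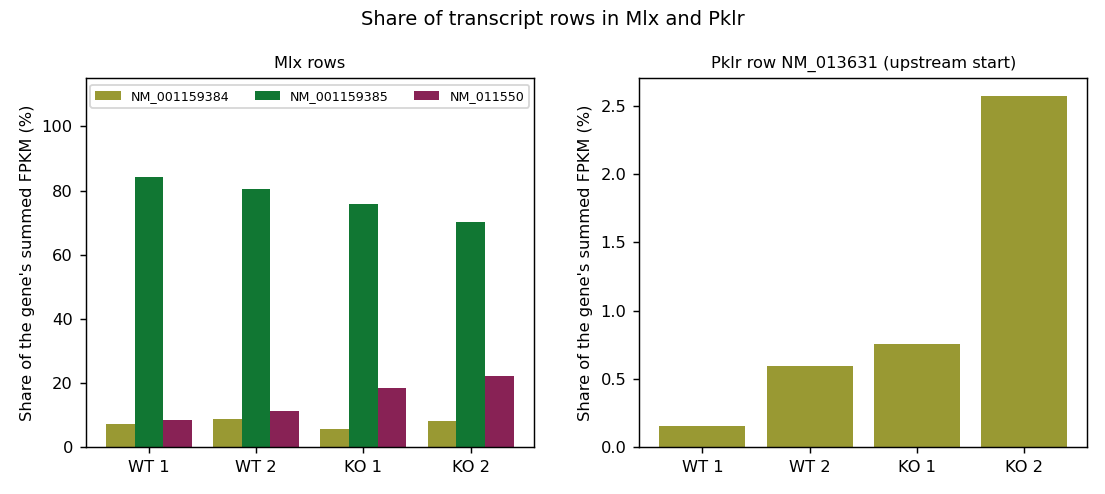
Bars give each row's share (%) of its gene's summed FPKM in each library, for the 3 rows of Mlx (left) and the upstream-start row of Pklr (right, on a scale that ends below 3%). Row NM_011550 of Mlx takes 18.5% and 22% in KO against 8.48% and 11.1% in WT, and the Pklr row reaches 2.58% in KO replicate 2.

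**Figure D3:**
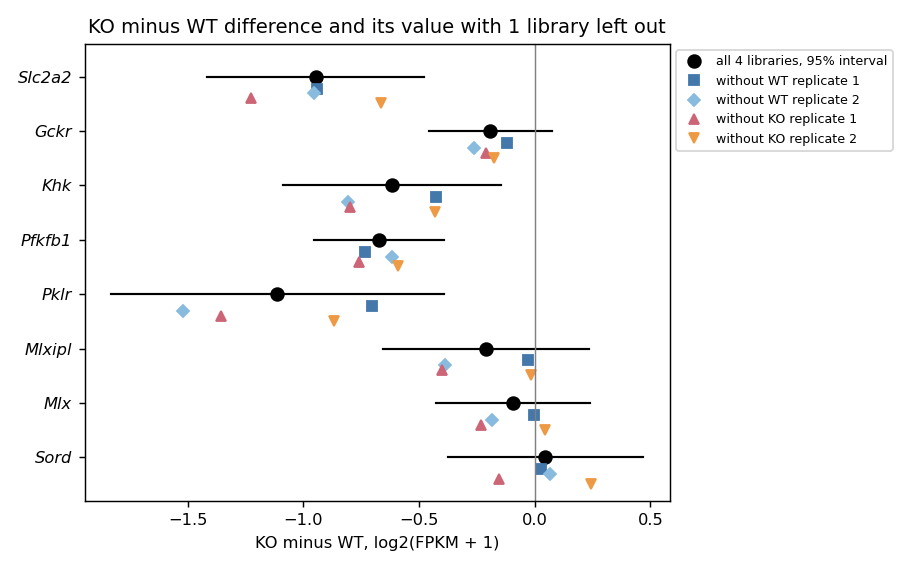
Black points give the KO minus WT difference in log2(FPKM + 1) with its 95% interval from limma (n = 2 each), and coloured markers the value with 1 library left out. The points and markers of Slc2a2, Khk, Pfkfb1, Pklr, Gckr and Mlxipl all lie below 0, while those of Mlx and Sord cross 0. The intervals of Gckr, Mlxipl, Mlx and Sord include 0.

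Among relatives of the ChREBP and MLX pair, Mnt, a repressor that pairs with MLX or MAX, had 3.46 and 2.49 FPKM in WT against 1.58 and 1.37 FPKM in KO (log2 difference −0.67, unadjusted p = 0.00415, limma adjusted p = 0.352). Mxd4, another repressor of the family, had 16.5 and 16.2 FPKM in WT against 18.0 and 22.4 FPKM in KO. Myc had 8.16 and 1.76 FPKM in WT against 2.15 and 0.812 FPKM in KO, with WT replicate 1 far above the other libraries, and Mycl 1.70 and 1.90 against 1.63 and 1.19 FPKM. Mlxip, which encodes the ChREBP relative MondoA, stayed between 0.665 and 1.03 FPKM. Of this list 7 of 10 genes were tested and none passed, with a median of −0.013.

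Other known ChREBP targets, many of which are SREBP1c targets as well, had lower values in KO in 18 of the 20 tested genes (against 45.4% of all genes), 12 of them without overlap and none higher without overlap (median −0.62). Of all genes, 16.4% were lower and 22.4% higher without overlap, with a median of 0.017. None of the 20 passed. Acacb, the mitochondrial acetyl-CoA carboxylase, came closest, with 12.2 and 8.72 FPKM in WT against 2.47 and 1.93 FPKM in KO (log2 difference −1.83, limma adjusted p = 0.0544). It did pass with a pseudocount of 0.1 (adjusted p = 0.0416), with a robust variance prior (0.0255) and with either KO library left out (0.00237 and 0.00555). Without KO replicate 1, where 306 of all genes passed, 8 of the 20 did, 7 lower and 1 higher, among them Thrsp (−3.13, adjusted p = 0.00663) and Rgs16 (−1.60, 0.0327). Rgs16, a G-protein regulator induced by sugar in liver, had 4.90 and 2.14 FPKM in WT against 0.495 and 0.418 FPKM in KO (−1.56, adjusted p = 0.245). Thrsp and Scd1 followed, at −2.48 and −1.09. In KO replicate 1 the median of this list was −0.32 from the WT mean, about that of WT replicate 2 (−0.34), and in KO replicate 2 it was −1.01. The medians of the 8 genes by library were 0.081 and −0.081 in WT and −0.30 and −0.58 in KO.

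Glycolytic steps shared with other tissues were mixed, with 9 of 15 tested genes lower and 6 higher and none past the threshold (median −0.13). In each direction 4 did not overlap, against 16.4% of all genes lower and 22.4% higher. Eno1, an enolase, had 380 and 303 FPKM in WT against 261 and 211 FPKM in KO, and Gpi1, the glucose phosphate isomerase, 110.2 and 89.2 against 78.6 and 62.5 FPKM. Aldoc, the brain aldolase, was on the other side, with 4.46 and 3.57 FPKM in WT against 5.44 and 5.15 FPKM in KO. Of 15 liver transcription factors known at sugar gene promoters none passed, and their median was 0.11. Foxa3 had 22.1 and 14.2 FPKM in WT against 25.1 and 29.98 FPKM in KO, Usf2, an E-box binding factor, 19.3 and 20.1 against 23.0 and 23.2 FPKM, Nr1h2, an LXR receptor, 13.8 and 13.7 against 16.0 and 16.9 FPKM, and Prox1 10.1 and 7.01 against 4.75 and 6.88 FPKM.

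**Figure D4:**
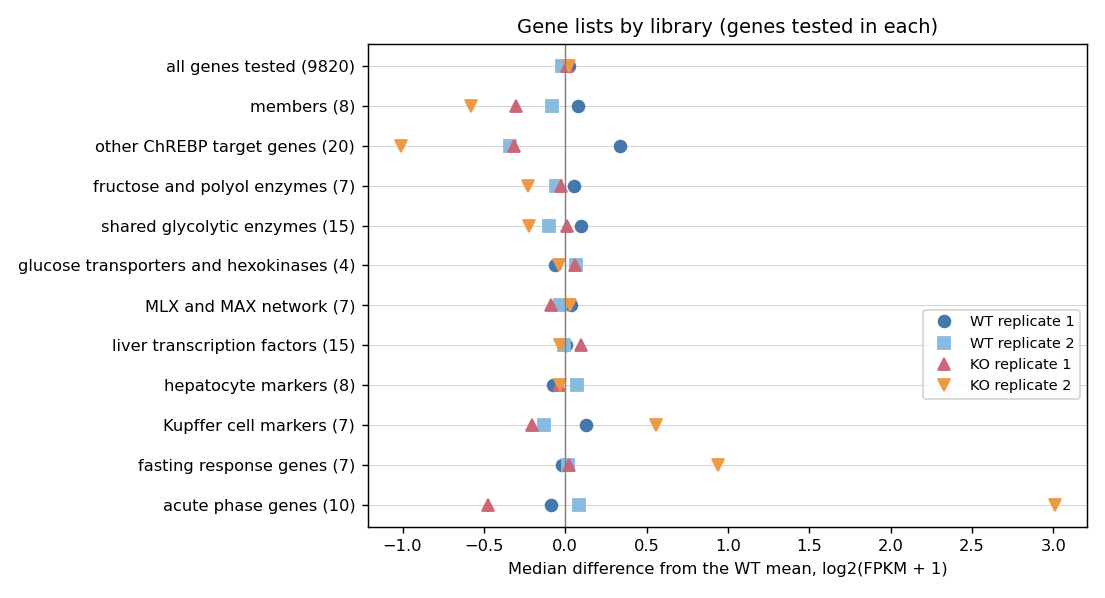
Each marker is the median, over the tested genes of a list (number in brackets), of a library's difference from the WT mean in log2(FPKM + 1). The 8 member genes lie at −0.30 and −0.58 in the KO libraries, while acute phase and fasting response genes lie far to the right in KO replicate 2 alone, at 3.01 and 0.94.

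Likeness of pattern was measured as the root mean square distance between genes in log2(FPKM + 1), each centred on its own mean of the 4 libraries, over 5863 named genes of at least 5 FPKM. For Slc2a2 the nearest was Car14 (distance 0.060), with 29.8 and 31.2 FPKM in WT against 19.5 and 13.7 FPKM in KO, the 1 gene within 0.1, followed by Eif4ebp3 and Rps4l (0.13 each). For Pklr no gene was within 0.1, and Scd1 (0.13), Osgin1 and Tkfc (0.15 each) were nearest. For Khk they were BC021614 (0.033), Gbe1 (0.037) and Pygl (0.044) among 21 genes within 0.1, and for Pfkfb1 Ces1b and Rbm3 (0.069 each) and Paox (0.080) among 6. The flatter genes had many neighbours, 190 for Mlxipl (Rnf145, Ppid and Rmdn2 nearest), 703 for Sord (Nr2c2ap, Chchd1, Arhgap29), 1235 for Mlx (Rpl15, Rcbtb2, Slco2a1) and 1249 for Gckr (Pcyt1a, Slc40a1, Lsm12), so likeness over these 4 libraries singles out little for them.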

How the data were processed

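RNA of 4 liver libraries was sequenced. Per the file headers, the authors deposited a table of FPKM by RefSeq transcript. The submitters' processing notes name Bowtie, TopHat and mm10; for the FPKM program, annotation and strandedness nothing is given in the sources used here. Groups came from the sample titles. The 33170 rows were summed into 23920 genes, since FPKM of single rows depend on how fragments were shared between transcripts. Rows of 8874 transcripts were listed at 0 throughout. Low FPKM values lay in steps that implied 20.8 to 22.9 M (mega) fragments per library, but only 53.6% to 55.4% of them lay within 0.1 of a whole fragment, so no count test was run. Fragment numbers given are estimates from GENCODE M21 transcript lengths.

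Differences are KO minus WT in log2(FPKM + 1), which understates the change of low genes. The test was the moderated one of limma 3.58.1 (R 4.3.3) with an intensity trend. It covered genes averaging 1 FPKM or more, p-values were adjusted by Benjamini-Hochberg with 0.05 as the threshold, and the fit was tested on simulated data. Exact permutation of 2 against 2 libraries cannot give a two-sided p below 0.333. The 8 genes, the lists and the tests were chosen with earlier results of these data known. Named genes were the 8, Srebf1, paralogues, up to 4 genes of smallest p from each list of pathway genes, and the 3 nearest patterns, except for a list gene that is not reported here; of the other cell type lists only sums and single genes beside a result are given. The lists are described by counts, without a test. Alternatives were other pseudocounts, filters, scalings and variance priors, a replicate block, each library left out and unsummed rows. Figures were drawn with matplotlib 3.10.9 and tables made with pandas 2.3.3 in python 3.11.15.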

Additional observations from a re-analysis of the deposited data

How the results depend on the processing

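The count of 7 genes past the limma threshold became 11 with a pseudocount of 0.1, 0 without a filter on low values (1233 at an unadjusted p under 0.05), 3 with a minimum of 5 FPKM, 4 with quantile normalization and 15 with a robust variance prior, and ran from 1 to 306 with 1 library left out, where the lone library of a group is assumed to vary like the others. None of the 8 genes passed except with a KO library left out. With 1 library left out the log2 difference ran from −1.23 to −0.67 for Slc2a2, from −0.81 to −0.43 for Khk, from −0.76 to −0.59 for Pfkfb1, from −0.26 to −0.12 for Gckr, from −0.40 to −0.017 for Mlxipl, from −1.52 to −0.70 for Pklr, from −0.23 to 0.044 for Mlx and from −0.15 to 0.25 for Sord. The cause of the reversed signs, 0.044 for Mlx and −0.15 for Sord, was not tested beyond naming the library left out. The count of the 8 genes lower in KO without overlap ran from 5 to 8 with 1 library left out. The share of all genes ran from 23.6% to 34.4% (16.4% with all 4 libraries). This check was chosen after seeing the data. Srebf1 kept its difference of −2.82 without a filter but not its call (adjusted p = 0.104), and ran from −2.96 to −2.68 with 1 library left out. Leaving out WT replicate 1 gave an adjusted p of 0.136, and leaving out WT replicate 2 gave 0.0923.

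The libraries share replicate numbers, but no link between same-numbered libraries is stated, and 2 pairs cannot show whether they were paired. The correlation of same-numbered deviations was 0.168 over 9820 genes. The implied depth was 22.9 M fragments in both replicate 1 libraries and 20.8 M in both replicate 2 libraries. The SE of Pklr was 0.29 without a block and 0.12 with the replicate number as one, and that of Pfkfb1 was 0.11 and 0.12. With the replicate number as a block 19 genes passed, none of the 8 among them, and the adjusted p of Pklr was 0.0549; Acacb (adjusted p = 0.00874) and Thrsp (0.00137) passed. Without KO replicate 1 the log2 difference was −0.69 for Slc2a5 and −0.69 for Eno1. With 2 libraries a group and FPKM as the unit, differences the size of those of Gckr, Mlxipl and Mlx could not be told from 0.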
